A study of Mus musculus with 14 samples.

Results

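Homeostatic chemokines are secreted proteins that are made without an inflammatory stimulus and guide immune cells to their places in lymphoid tissue. The 10 genes described here are the ligands Cxcl12, Cxcl13, Cxcl14, Cxcl16, Ccl19 and Ccl20 and the receptors Ccr6, Ccr7, Cxcr4 and Cxcr5. They were found by gene name among the non-control spots of a mouse array, where they had 13 of 55681 probes and were 10 of 34797 gene names. For a gene with several probes, the probe with the highest mean log2 signal over all arrays was used.

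CXCL13 attracts CXCR5-bearing B cells to follicles, CXCL12 acts through CXCR4, CCL19 acts through CCR7 on T cells and mature dendritic cells, and CCL20 acts through CCR6. These receptors couple to inhibitory G proteins, and follicles and T cell zones of lymph nodes are built on the CXCL13 and CCL19 axes. The lymph reaches a node through the subcapsular sinus, which lies above the follicles, and leaves it through the medullary sinus.

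All samples came from lymph nodes of C57BL/6 mice with no treatment or genetic change stated in the labels, and no age is given. They were labelled as lymphatic endothelial cells of the medullary sinus (5 samples by laser-capture microdissection, LCM, and 2 by fluorescence-activated sorting, FACS) or of the subcapsular sinus (5 by LCM and 2 by FACS). For FACS, 1200 cells a sample were sorted from digested nodes of the limbs, neck and trunk (inguinal, axillary, brachial, popliteal, cervical, renal, lumbar, caudal and mesenteric), with a dead-cell dye, anti-podoplanin, anti-CD73 and a lineage cocktail against B220, CD3e, CD11b, Ly-6C, Ly-6G and erythroid cells. For LCM, 50 cells a sample were cut from frozen sections of inguinal, axillary and brachial nodes stained for CD31, which marks all endothelium, and for the macrophage antigen that Emr1 encodes. SuperAmp amplification preceded hybridisation in 1 colour to Agilent arrays, 1 per sample. Isolation therefore changed together with the node set and the number of cells.

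A level below is the log2 of the processed signal minus the 75th percentile of that array, so 0 is that percentile. Levels compare arrays for 1 probe and not 1 probe with another. Between 50.77 and 78.97% of probes were well above background on an array. Replicate arrays of a group correlated at 0.691 to 0.862 (Pearson r over probes). All subcapsular LCM samples and medullary LCM samples 1 to 3 lay on 1 slide, and medullary LCM samples 4 and 5 shared the other with all FACS samples, whose sinuses lay in different rows of that slide. On the first slide, subcapsular LCM samples 1 to 4 lay in row 1. Subcapsular LCM sample 5 and medullary LCM samples 1 to 3 lay in row 2, so sinus and row were largely tied there. Of 6 markers of lymphatic endothelium, 3 to 6 were above background on medullary LCM, 2 to 4 on subcapsular LCM, 3 to 4 on medullary FACS and 3 to 4 on subcapsular FACS arrays. Prox1, the transcription factor that specifies lymphatic endothelium, was above background on 14 of 14 arrays, at mean levels between −3.07 and −0.81. Lyve1, a hyaluronan receptor of lymphatic endothelium, was above background on 3 of 5 medullary LCM, 3 of 5 subcapsular LCM, 0 of 2 medullary FACS and 1 of 2 subcapsular FACS arrays. Mmrn1, a secreted glycoprotein of endothelium, was above background on 4 of 5 medullary LCM (−5.44 to −1.23), 4 of 5 subcapsular LCM (−5.32 to 1.64), 0 of 2 medullary FACS (−6.51 to −5.5) and 2 of 2 subcapsular FACS arrays (−2.48 to −1.33). Flt4, Pdpn and Reln were each below background on 1 or more arrays of both LCM groups. Pdpn was above background on 2 of 2 medullary FACS and 1 of 2 subcapsular FACS arrays. The 6 endothelial markers averaged −3.11 and −1.73 on medullary FACS arrays, and −0.4 and 0.74 on subcapsular FACS arrays. Their mean was 0.97 to 1.5 on medullary LCM and −1.63 to 0.29 on subcapsular LCM arrays. Between the sorted sinuses, 5 of them were lower in medullary samples and 1 was higher. Pecam1 averaged −3.6 in medullary FACS and 4.62 in subcapsular FACS samples. Markers of B cells averaged 2.67 to 3.42 on the medullary LCM, 3.58 to 4.57 on the subcapsular LCM, 1.02 to 1.67 on the medullary FACS and 3.76 to 4.19 on the subcapsular FACS arrays, although the sorting cocktail held B220. In such bulk samples, fewer cells of a type and less RNA per cell cannot be told apart.

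Promoter sequences from RefSeq (build GRCm38.p6, 250 bases before to 50 after the annotated start) were at hand for 7 of the 10 genes, in 8 windows. Cxcl16, Ccr7 and Cxcr5 are named only. The windows of Cxcl13 and Cxcl12, the 2 genes whose LCM levels did not overlap between the sinuses, and of Ccl19, whose probes lie there, are shown. Capitals mark a TATAAA motif in the Cxcl13 window (chr5:95956689-95956988, plus strand), and the motif was not found in the Cxcl12 window (chr6:117168285-117168584, plus strand).
Cxcl13: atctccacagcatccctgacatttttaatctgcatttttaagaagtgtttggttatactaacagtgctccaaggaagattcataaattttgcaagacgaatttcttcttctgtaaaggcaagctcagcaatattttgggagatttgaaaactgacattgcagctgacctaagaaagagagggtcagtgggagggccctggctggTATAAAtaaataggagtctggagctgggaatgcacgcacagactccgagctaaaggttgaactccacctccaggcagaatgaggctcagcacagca
Cxcl12: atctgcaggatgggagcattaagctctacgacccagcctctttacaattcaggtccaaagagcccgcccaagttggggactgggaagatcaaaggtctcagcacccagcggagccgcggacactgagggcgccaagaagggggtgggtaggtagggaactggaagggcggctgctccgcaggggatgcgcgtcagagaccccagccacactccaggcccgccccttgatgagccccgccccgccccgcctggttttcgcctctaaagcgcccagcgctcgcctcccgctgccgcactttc
The TATAAA of Cxcl13 starts 46 bases before the annotated start, and 13.6% of the 32851 promoters of the table hold TATAAA on either strand. The Cxcl13 window holds 3 CG dinucleotides and the Cxcl12 window 20, against a median of 7 over all promoters. These matches are a description of the letters.

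The Ccl19 window (chr4:42756316-42756615, minus strand) is shown because 2 of the gene's 3 probes match it letter for letter, set in capitals.
Ccl19: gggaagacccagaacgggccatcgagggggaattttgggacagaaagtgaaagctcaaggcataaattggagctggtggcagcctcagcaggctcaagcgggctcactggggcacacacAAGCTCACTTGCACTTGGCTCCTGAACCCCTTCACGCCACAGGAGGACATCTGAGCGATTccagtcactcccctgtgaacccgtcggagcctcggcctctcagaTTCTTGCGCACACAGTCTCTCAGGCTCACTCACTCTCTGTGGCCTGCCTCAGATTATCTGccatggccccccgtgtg
The upstream stretch is probe A_55_P2127991, which runs from −131 to −72 and so lies wholly before the annotated start. It also matches the window of Gm12407. The downstream stretch is A_55_P2127995, the brightest of the 3 and the one used here, which has 27 bases before the start and 33 after it. The third probe, A_55_P2099742, is not in the window and begins with these 30 bases.
A_55_P2099742: acctccagaccagctctgggtggatcgcat
The file headers place all 3 probes on the plus strand of mm9 chromosome 4, from 42248526 to 42250164, and list them under NM_011888. RefSeq names 5 genes and pseudogenes with the Ccl19 name or its older synonym on chromosome 4, so near-identical copies may share these signals and the Ccl19 values are uncertain.

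Microdissected medullary samples had less Cxcl13 and more Cxcl12 than subcapsular ones, with no overlap between the sinuses for either gene, but neither passed the test over all genes. Sorted samples had lower levels of both than microdissected ones and higher Ccr7, calls that were lost with the slide as a block. Ccl20 was at background almost everywhere.

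**Figure D1:**
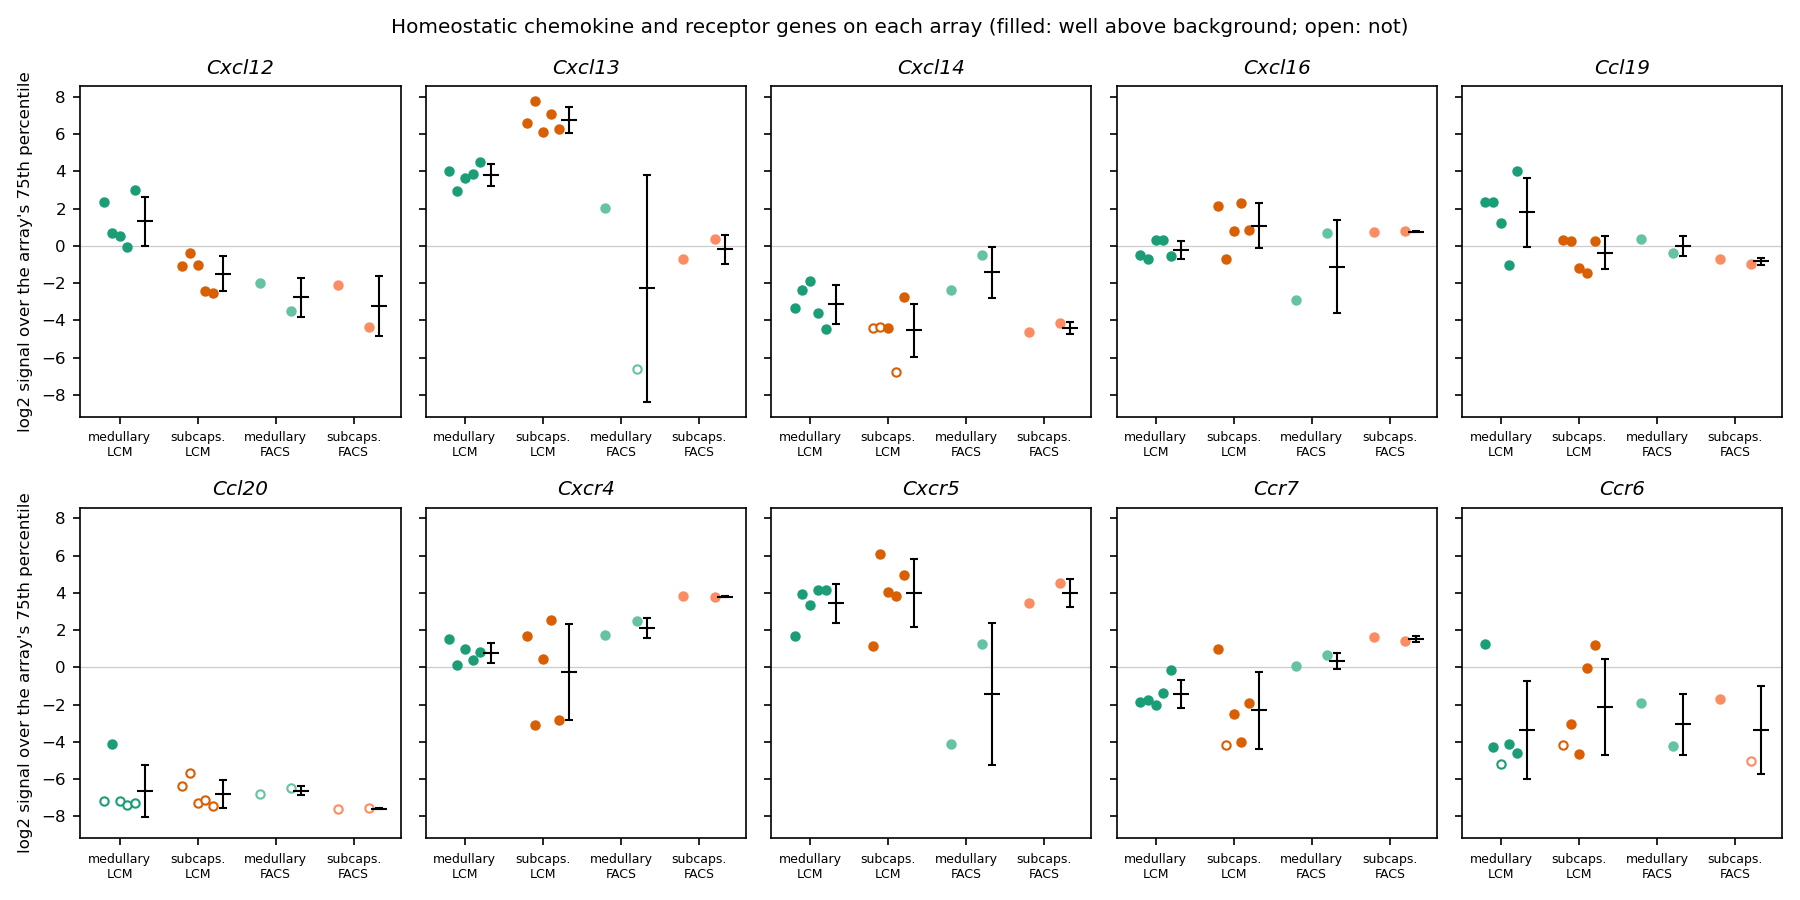
Level of each of the 10 genes on each of the 14 arrays (y axis: log2 signal over the array's 75th percentile; x axis: sinus and isolation; black bars: mean ± SD, n = 5 for LCM and 2 for FACS groups). Cxcl13 lies at 2.97 to 4.53 in medullary LCM samples and at 6.11 to 7.78 in subcapsular LCM samples, and open symbols are probes not well above background.

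Cxcl13, the B cell attractant of follicles, was measured with a probe to NM_018866 on mm9 chromosome 5 (96389861 to 96389920, plus strand). Its level was 4.02, 2.97, 3.64, 3.88 and 4.53 in the medullary LCM samples, against 6.61, 7.78, 6.11, 7.07 and 6.26 in the subcapsular LCM samples. Every medullary sample was below every subcapsular one. The difference was −2.96 ± 0.52 on the log2 scale (SE, n = 5 each, 95% interval −4.1 to −1.81), or 7.77-fold, with a limma adjusted p of 0.0608 over 27379 genes, the 64th smallest p. With the slide as a block, or on the first slide alone, the difference was −3.22 (limma adjusted p = 0.0634 and 0.0729). With the row as a block it was −2.7 (limma adjusted p = 0.168). Of 13 alternative settings with these arrays, Cxcl13 passed under 3, with limma adjusted p of 0.0283 to 0.0295. Over all 13 the difference was −3.22 to −2.14, with limma adjusted p of up to 0.478. It passed in 0 of 10 fits that left out a single array (−3.14 to −2.7).

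In sorted samples, Cxcl13 was at 2.04 and −6.59 in the medullary pair, against −0.73 and 0.36 in the subcapsular pair. The lower medullary value was not above background, so the subcapsular pair lies between the medullary values. The difference was −2.09 ± 3.14 (SE, n = 2 each, limma adjusted p = 0.638, 95% interval −10.84 to 6.65), and it was 2.22 without medullary FACS sample 7. By mean level the order was subcapsular LCM, medullary LCM, subcapsular FACS and medullary FACS, with overlap only between the last pair of neighbours.

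On each microdissected array, the Cxcl13 level minus the Cxcl12 level does not depend on the scaling of that array. It was 1.54 to 3.92 in medullary samples (mean 2.49 ± 1.01, SD, n = 5), against 7.15 to 9.49 in subcapsular samples (8.26 ± 0.92, SD, n = 5). Since each gene was already apart between the sinuses, in opposite directions, these ranges could not overlap, and they are given as a description.

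Tnfsf11, which encodes the cytokine RANKL made by marginal reticular cells beneath the subcapsular sinus, was chosen after its values were seen. It was above background on 2 of 5 medullary LCM arrays, at levels from −7.36 to −2.02 over all 5, and on 5 of 5 subcapsular LCM arrays, at 0.33 to 3.26. The difference was −6.03 ± 1.06 (SE, limma adjusted p = 0.0608). Of the 6 reticular cell markers tested by LCM, Tnfsf11 among them, 5 were lower and 1 was higher in medullary samples, and none was called. Those other than Tnfsf11 differed by −1.31 (Dcn) to 1.78 (Lum). In sorted samples Tnfsf11 was at −1.83 and −6.67 in the medullary pair, against −3.84 and −4.92 in the subcapsular pair. Macrophage markers averaged −0.2 to 1.27 in medullary LCM samples and 0.67 to 3.58 in subcapsular LCM samples, and all 7 were measured. Their part in the Cxcl13 difference was not tested.

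Cxcl12 encodes the ligand of CXCR4 that retains and attracts many leukocytes and is made by stromal and endothelial cells. Its probe A_51_P172502 (NM_001012477, mm9 chromosome 6, 117131227 to 117131286, plus strand) read 2.36, 0.7, 0.55, −0.04 and 2.99 in the medullary LCM samples, against −1.07, −0.38, −1.04, −2.42 and −2.54 in the subcapsular LCM samples. All medullary values were above all subcapsular ones. The difference was 2.8 ± 0.73 (SE, n = 5 each, 95% interval 1.19 to 4.42), or 6.98-fold, with a limma adjusted p of 0.211. It was 2.7 with the slide as a block and on the first slide alone (limma adjusted p = 0.313 and 0.23), and 3.08 with the row as a block (limma adjusted p = 0.308).

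The second Cxcl12 probe, A_55_P1966204 for NM_021704, was above background on 1 of 14 arrays, medullary LCM sample 1. Between the LCM sinuses it gave a difference of 0.59 (limma adjusted p = 0.851). The mean of the 2 probes gave 1.7 (limma adjusted p = 0.435). The 2 probes, whose first 30 bases follow, are listed under different transcript accessions of the gene.
A_51_P172502: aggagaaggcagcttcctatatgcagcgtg
A_55_P1966204: gctgtaaacctcctaccgtatgtgggaatt
In sorted samples, Cxcl12 was at −2.01 and −3.5 in the medullary pair, against −2.09 and −4.37 in the subcapsular pair. These ranges overlap, and the difference of 0.48 ± 1.11 (SE, limma adjusted p = 0.762) turned to −0.24 with quantile normalization.

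Markers of high endothelial venules, the blood vessels through which lymphocytes enter nodes, moved with Cxcl12 between the microdissected sinuses. Their mean was 2.35 to 3.63 in medullary LCM samples and −1.22 to 0.46 in subcapsular LCM samples, with all 5 markers above background on every array. The 3 called markers, all higher in medullary samples, were the fucosyltransferase gene Fut7 (6.76 ± 0.64, limma adjusted p = 0.00386), the atypical chemokine receptor gene Darc (5.44 ± 0.65, adjusted p = 0.0163) and the sulfotransferase gene Chst4 (4.47 ± 0.73, adjusted p = 0.0472), each difference given with its SE. Across the 14 arrays the Cxcl12 level and the mean of these markers had r = 0.72, and within the LCM groups r = 0.141, as a description of arrays that share their scaling. Their part in the Cxcl12 difference was not tested.

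Ccl19 encodes a CCR7 ligand made by T-zone reticular cells. Its brightest probe read 2.38, 2.38, 1.24, −1.05 and 4.01 in the medullary LCM samples, against 0.32, 0.25, −1.21, −1.48 and 0.28 in the subcapsular LCM samples. Medullary sample 4 lay among the subcapsular values. The difference was 2.16 ± 0.89 (SE, n = 5 each, limma adjusted p = 0.391, 95% interval 0.2 to 4.12).

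The other Ccl19 probes separated the sinuses fully. A_55_P2127991 read 2.76, 1.6, 1.55, 0.63 and 3.48 in medullary LCM samples, against −2.03, −2.37, −3.95, −1.16 and 0.45 in subcapsular LCM samples. A_55_P2099742, the one outside the promoter window, read 2.15, 3.02, 1.9, 2.61 and 3.54 in medullary LCM samples, against 0.76, −5.85, −1.74, −4.83 and −5.34 in subcapsular LCM samples, 3 of which were not above background. Used in place of the brightest probe, they gave differences of 3.81 (limma adjusted p = 0.148) and 6.04 (limma adjusted p = 0.0944), and the mean of the 3 probes gave 4.01 (limma adjusted p = 0.0536). The probes thus had 1 direction and did not pass.

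**Figure D2:**
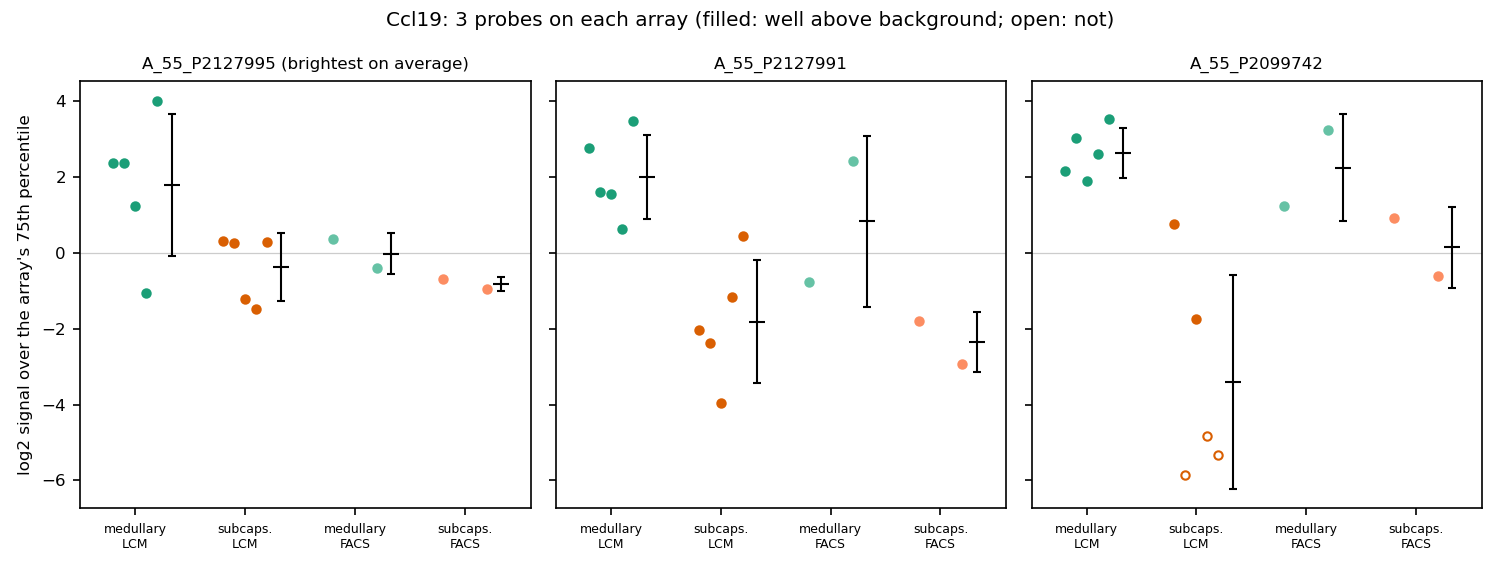
Level of Ccl19 by each of its 3 probes (y axis: log2 signal over the array's 75th percentile; x axis: sinus and isolation; black bars: mean ± SD, n = 5 for LCM and 2 for FACS groups; open symbols: not well above background). The medullary LCM points of A_55_P2099742 span 1.9 to 3.54, all above the subcapsular LCM points, while those of A_55_P2127995 overlap with them.

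In sorted samples, Ccl19 by its brightest probe was at 0.37 and −0.4 in the medullary pair, against −0.7 and −0.96 in the subcapsular pair. The pairs did not overlap, and the difference was 0.81 ± 0.62 (SE, limma adjusted p = 0.375). It was 2.1 by probe A_55_P2099742 (limma adjusted p = 0.228), 3.19 by A_55_P2127991 (limma adjusted p = 0.182) and 2.03 by the mean of the probes (limma adjusted p = 0.185). Cxcl12 and Ccl19 had r = 0.794 over the 14 arrays and 0.69 within the LCM groups by that probe. The other Ccl19 probes gave 0.556 and 0.39 over the 14 arrays, so the likeness depends on the probe.

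Cxcl14 encodes a chemokine made by epithelia and stroma, and its signals were weak. It was at −3.36, −2.37, −1.87, −3.62 and −4.48 in the medullary LCM samples, against −4.44, −4.36, −4.4, −6.76 and −2.73 in the subcapsular LCM samples, 3 of which were not above background. The ranges overlap (difference 1.4 ± 0.79, SE, limma adjusted p = 0.517). Sorted medullary samples were at −2.39 and −0.47, against −4.62 and −4.16 in sorted subcapsular samples. Both were above the subcapsular pair, and the difference of 2.96 ± 0.89 (SE, n = 2 each, 95% interval 0.48 to 5.44) had a limma adjusted p of 0.134.

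Cxcl16 encodes a transmembrane chemokine that also serves as a scavenger receptor. It was at −0.51, −0.69, 0.3, 0.31 and −0.55 in the medullary LCM samples, against 2.14, −0.7, 0.81, 2.28 and 0.84 in the subcapsular LCM samples. Subcapsular sample 2 was as low as the medullary ones, and the difference was −1.3 ± 0.64 (SE, limma adjusted p = 0.462). Sorted medullary samples read −2.89 and 0.67, against 0.75 and 0.78 in sorted subcapsular samples (difference −1.88 ± 1.38, SE, limma adjusted p = 0.36).

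Ccl20, the CCR6 ligand of mucosal epithelia, was well above background on 1 of 14 arrays, medullary LCM sample 2, at −4.12. It had no test and no fold. Its levels on the other arrays, from −7.62 to −5.66, are at the floor and have no order.

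Cxcr5, the receptor for CXCL13, is borne by B cells and follicular helper T cells. It was at 1.68, 3.93, 3.34, 4.14 and 4.14 in the medullary LCM samples, against 1.15, 6.08, 4.06, 3.84 and 4.95 in the subcapsular LCM samples. These ranges overlap, and the difference of −0.57 ± 0.9 (SE, limma adjusted p = 0.841) turned to 0.2 with quantile normalization. Sorted medullary samples were at −4.14 and 1.28, against 3.48 and 4.54 in sorted subcapsular samples. The medullary pair lay below the subcapsular pair, by 5.44 on average, with an SE of 2.04 and a limma adjusted p of 0.164 (n = 2 each, 95% interval of the difference −11.12 to 0.24). With all 14 arrays in 1 fit the same difference had a limma adjusted p of 0.0306, where 4507 genes over the whole array passed. B cell markers had the same order in these samples (their mean was 1.02 and 1.67 in the medullary pair, against 3.76 and 4.19 in the subcapsular pair), and r between the Cxcr5 level and their mean was 0.803 over the 14 arrays. Over the LCM arrays alone, r was 0.483 with the B cell markers and 0.867 with markers of follicular dendritic cells. Over the 14 arrays, r was 0.744 with follicular dendritic cell markers. That list shares Cr2 with the B cell list, and its Sox9 was not above background on any array, so it cannot be set apart from B cells. Endothelial markers, which share no gene with the B cell list, had r = 0.7, so the likeness was not particular to B cell markers. The part of these cells in the Cxcr5 values was not tested.

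**Figure D3:**
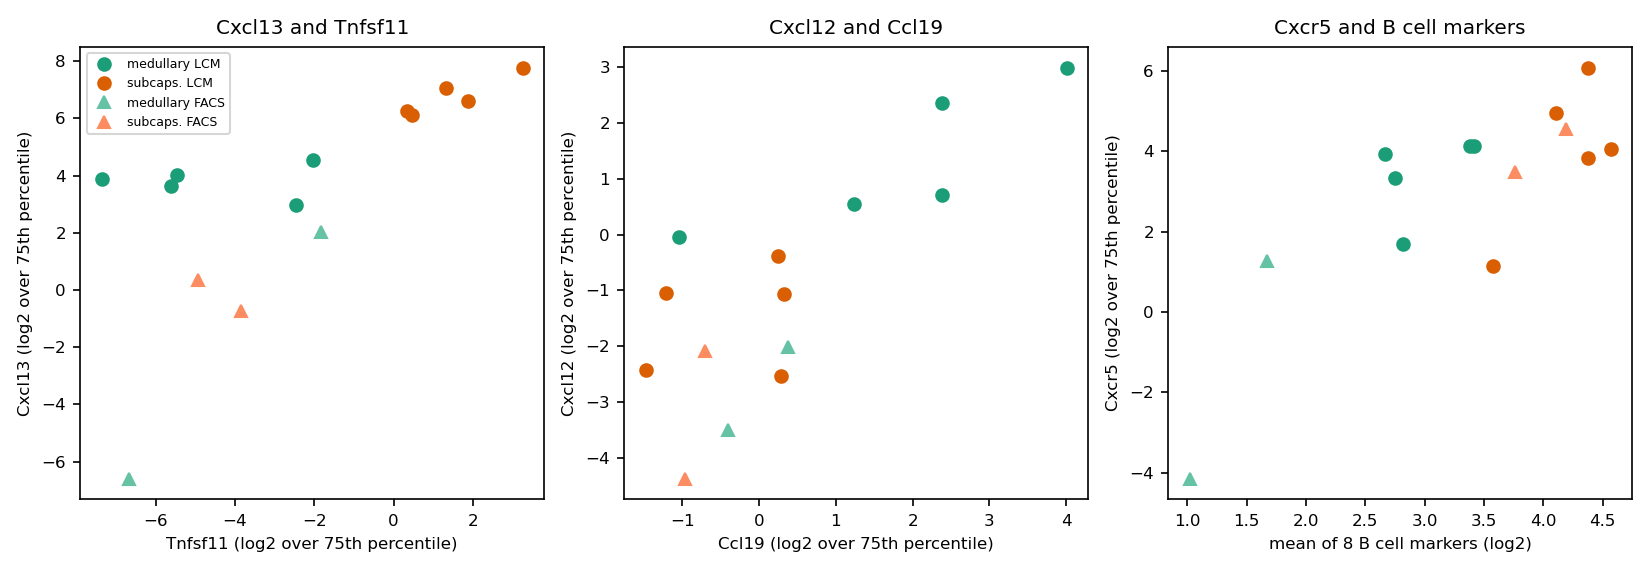
Cxcl13 against Tnfsf11, Cxcl12 against Ccl19 and Cxcr5 against the mean of 8 B cell markers, 1 point per array (all axes: log2 signal over the array's 75th percentile; circles: LCM; triangles: FACS). Tnfsf11 is above 0 on the 5 subcapsular LCM arrays, where Cxcl13 is 6.11 to 7.78, and the lowest Cxcr5 value, −4.14, belongs to a medullary FACS array.

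Cxcr4, the receptor for CXCL12, is widely borne by leukocytes and by some endothelium. It was at 1.5, 0.13, 0.99, 0.39 and 0.81 in the medullary LCM samples, against 1.7, −3.1, 0.46, 2.53 and −2.83 in the subcapsular LCM samples. The medullary values sat inside the spread of the subcapsular ones (difference 1.01 ± 1.09, SE, limma adjusted p = 0.765). Sorted medullary samples were at 1.74 and 2.48, against 3.82 and 3.78 in sorted subcapsular samples. The medullary pair was lower without overlap (difference −1.69 ± 0.61, SE, n = 2 each, limma adjusted p = 0.157, 95% interval −3.39 to 0.01).

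Ccr7, the receptor for CCL19, brings T cells and dendritic cells to and through lymph nodes. It was at −1.88, −1.75, −2.03, −1.38 and −0.15 in the medullary LCM samples, against 0.96, −4.16, −2.49, −4.01 and −1.89 in the subcapsular LCM samples, where sample 2 was not above background. The ranges overlap (difference 0.88 ± 0.94, SE, limma adjusted p = 0.763). Sorted medullary samples read 0.05 and 0.66, against 1.63 and 1.41 in sorted subcapsular samples (difference −1.16 ± 0.59, SE, limma adjusted p = 0.235).

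Ccr6, the receptor for CCL20, is found on B cells and on some T cells. It was at 1.28, −4.28, −5.18, −4.11 and −4.58 in the medullary LCM samples, against −4.16, −3.04, −4.63, −0.05 and 1.19 in the subcapsular LCM samples. A few samples of either sinus were high and the rest near the floor (difference −1.24 ± 1.47, SE, limma adjusted p = 0.789). Sorted medullary samples were at −1.91 and −4.21, against −1.68 and −5.04 in sorted subcapsular samples (difference 0.3 ± 1.55, SE, limma adjusted p = 0.892).

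Between the microdissected sinuses, 9 of the 10 genes passed the filter on weak probes and 0 of 9 were called at a limma adjusted p under 0.05, against 0.175% of all genes tested (48 of 27379). Groups did not overlap for 2 of 9 genes, against 3.09% of all genes: Cxcl12, with the medullary samples higher (1.03% of all genes), and Cxcl13, with the medullary samples lower (2.06%). An unadjusted p under 0.05 was reached by Cxcl12 (0.00289), Cxcl13 (0.00015) and Ccl19 (0.034), and by 11.7% of all genes.

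Between the sorted sinuses, limma called 0 of 9, as it called 0% of the 27664 genes tested, while 31.9% had an unadjusted p under 0.05. The single member below that unadjusted level was Cxcl14 (0.0298). Groups did not overlap for 6 of the 9 genes, and likewise did not overlap for 69.7% of all genes. Medullary FACS samples stood 0.74 higher than subcapsular ones at the median gene, so differences in sorted samples are to be read against that shift, which was 0.08 in LCM samples. None of the 9 passed the test of whether the sinus difference was unlike between FACS and LCM, where 1.3% of 29690 genes passed. The lowest adjusted p was that of Cxcr5 (−4.87 ± 1.93, SE, limma adjusted p = 0.183). Without medullary FACS sample 7, this contrast was −7.58 for Cxcr5 and 5.18 for Cxcl13. For Cxcl13 it turned to −3.45 without medullary FACS sample 6. Over all fits without 1 array, the Cxcr5 value was −7.58 to −2.16. Leaving out a FACS sample leaves 1 array in its arm, which is assumed to vary like the others.

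Between isolations, 3 genes passed. Cxcl13 averaged −1.23 over the 2 FACS groups and its difference from the LCM groups was −6.51 ± 1.17 (SE, 4 against 10 arrays), a 91.4-fold lower signal with a limma adjusted p of 0.00705. All FACS samples were below all LCM samples. The size rests on the medullary FACS pair, of which sample 7 was not above background: the difference was −4.36 without that sample and −8.67 without medullary FACS sample 6. It passed without any 1 of the 14 arrays (limma adjusted p = 4.46e-07 to 0.0372). Cxcl12 was also lower in FACS samples (−2.91 ± 0.64, SE, 7.49-fold, limma adjusted p = 0.0236), with its highest FACS sample at −2.01 and its lowest LCM sample at −2.54. The Cxcl12 difference did not pass by the mean of its probes (−1.75, limma adjusted p = 0.158). Nor did it pass by the weak probe A_55_P1966204 (−0.59, limma adjusted p = 0.774). Ccr7 was higher in FACS samples by 2.82 ± 0.7 (SE, 7.04-fold, limma adjusted p = 0.0412), with its lowest FACS sample at 0.05 and subcapsular LCM sample 1 at 0.96. Thus 3 of 9 genes were called, against 3.86% of 29690 genes, with 1 higher (1.83% of all genes) and 2 lower (2.04%). The groups of 1 gene, Cxcl13, did not overlap, against 1.02% of all genes in either direction and 0.554% with FACS samples lower.

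These calls were lost with the slide as a block. The difference was then −7.05 for Cxcl13 (limma adjusted p = 0.189), −3.12 for Cxcl12 (limma adjusted p = 0.31) and 1.92 for Ccr7 (limma adjusted p = 0.613). On the slide that held both isolations, medullary FACS samples read 2.04 and −6.59 for Cxcl13, against 3.88 and 4.53 in medullary LCM samples 4 and 5. On the same slide Cxcl12 was at −2.01 and −3.5 in medullary FACS samples, against −0.04 and 2.99 in those LCM samples. There Ccr7 was at 0.05 and 0.66 in medullary FACS samples, against −1.38 and −0.15 in the LCM pair. On that slide the medullary LCM pair lay in row 1 and the medullary FACS pair in row 2. Row and isolation thus cannot be told apart in these values. For subcapsular samples, slide and isolation cannot be told apart. Cxcl12 did not pass without subcapsular FACS sample 7 (−2.33, limma adjusted p = 0.148) or medullary FACS sample 7 (−2.53, limma adjusted p = 0.0671). Ccr7 kept its call without subcapsular LCM sample 1, medullary LCM sample 5 or medullary FACS sample 6 (differences 2.97 to 3.23), and lost it without any other 1 of the 14 arrays (differences 2.59 to 2.87, limma adjusted p = 0.0568 to 0.183).

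**Figure D4:**
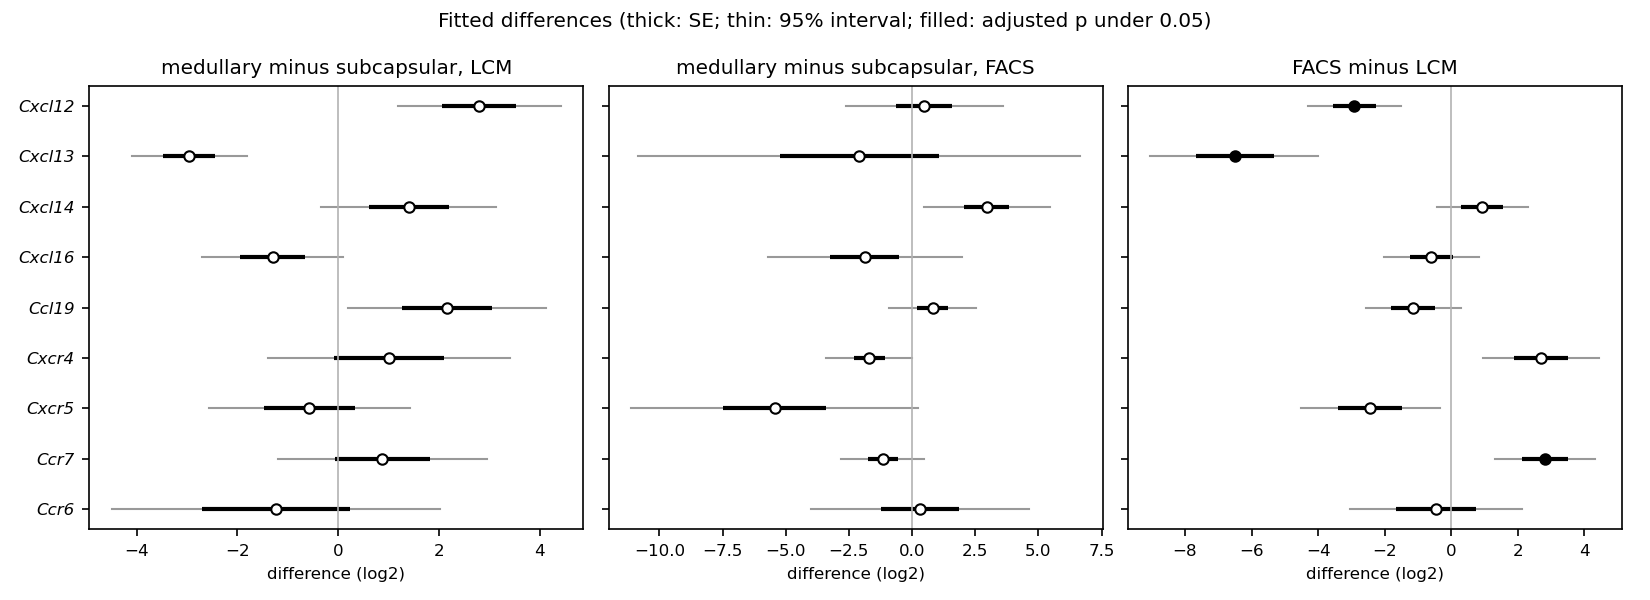
Fitted differences for the 9 genes tested, in log2 units (thick lines: SE; thin lines: 95% interval; filled: limma adjusted p under 0.05). Medullary minus subcapsular is shown for LCM (n = 5 each) and FACS (n = 2 each), and FACS minus LCM for all 14 arrays; filled points are Cxcl13 at −6.51, Cxcl12 at −2.91 and Ccr7 at 2.82.

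The other 6 genes tested did not pass between isolations. Cxcr4 had a difference of 2.7 ± 0.81 (SE, limma adjusted p = 0.0959) and passed with normexp background correction (2.36, limma adjusted p = 0.0297) and without subcapsular LCM sample 4 (3.05, limma adjusted p = 0.0415). Cxcr5 had one of −2.44 ± 0.96 (SE, limma adjusted p = 0.222) and passed without medullary FACS sample 7 (−3.79, limma adjusted p = 0.0144). For Cxcl14 it was 0.93 (95% interval −0.44 to 2.3), for Cxcl16 −0.6 (−2.01 to 0.82), for Ccl19 −1.14 (−2.57 to 0.3) and for Ccr6 −0.46 (−3.05 to 2.14). The Ccl19 difference turned to 1.57 by probe A_55_P2099742. Reticular cell markers averaged −3.81 to −2.49 in medullary FACS and −4.63 to −2.99 in subcapsular FACS samples, against −2.69 to −0.39 in medullary LCM and −1.26 to 1.54 in subcapsular LCM samples. Ccr7 and the mean of these 7 markers, Tnfsf11 among them, had r = −0.822 over the 14 arrays, and −0.678 within the LCM groups, while Cxcr4 and the macrophage markers had r = −0.759. Over the 14 arrays these were the lowest r of any member with any marker list. Ccr7 had r = 0.362 with T cell markers and 0.211 with dendritic cell markers. All are values from arrays that share their scaling, and the part of these cells in the differences was not tested.

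Other homeostatic and mucosal chemokines and receptors were found by name for 15 of 18 genes, and Ccl21a, Ccl21b and Ccl21c, the other CCR7 ligands, were not matched and not analysed here. Between sinuses 0 of 13 tested genes were called by LCM (median difference 0.59, against 0.08 over all genes) and 0 of 12 by FACS (median −0.82, against 0.74). Between isolations 1 of 13 was higher, against 1.83% of all genes, and 0 lower (median 1.69, against 0.17 over all genes). It was Ccl22, a CCR4 ligand of dendritic cells. Its level was −0.62 to −0.31 in medullary FACS and −0.76 to 0.42 in subcapsular FACS samples, against −7.3 to −3.02 in medullary LCM and −7.42 to −0.49 in subcapsular LCM samples. The difference was 4.57 ± 0.98 (SE, limma adjusted p = 0.0202), with 4 of 10 LCM arrays above background.

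The lymphotoxin and RANK pathway, through which stromal cells are induced to make homeostatic chemokines, had 14 of 14 genes tested and 0 called between the sinuses by LCM (median −0.3, against 0.08 over all genes) or FACS (median −1.73, against 0.74). Between isolations 1 of 14 was lower, against 2.04% of all genes, and 0 higher (median 0, against 0.17 over all genes). It was Ltbr, the lymphotoxin beta receptor. It was at −1.56 and −2.04 in medullary FACS samples and −0.16 and 0.4 in subcapsular FACS samples, against −0.16 to 2.27 in medullary LCM and 1.56 to 5.16 in subcapsular LCM samples. The difference was −2.63 ± 0.59 (SE, limma adjusted p = 0.0252).

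Signal transduction genes downstream of chemokine receptors had 0 of 22 called between the LCM sinuses (7 positive, 15 negative, median −0.97, against 0.08 over all genes) and 0 of 23 between the FACS sinuses (3 positive, 20 negative, median −2.01, against 0.74). Between isolations 1 of 23 was higher and 3 lower, against 1.83% and 2.04% of all genes (median −0.31, against 0.17 over all genes). The higher one was Rgs13, a G protein regulator of germinal centre B cells (4.61 ± 1.09, SE, limma adjusted p = 0.033). The lower ones were Gnai3, an inhibitory G protein subunit (−2.82 ± 0.49, SE, limma adjusted p = 0.00575), Grk6, a receptor kinase (−2.84 ± 0.62, SE, limma adjusted p = 0.0224), and Rap1a, a small GTPase of integrin activation (−2.2 ± 0.49, SE, limma adjusted p = 0.0242). For each of these 3, the low values were those of the medullary FACS pair. Gnai3 was at −2.46 and −1.35 there and at 3.08 to 3.27 in subcapsular FACS samples, against 2.18 to 3.15 in medullary LCM and 2.6 to 5.98 in subcapsular LCM samples. Grk6 was at −3.07 and −1.66 in medullary FACS and at 3.41 to 4.01 in subcapsular FACS samples, against 2.79 to 3.3 in medullary LCM and 2.38 to 6.77 in subcapsular LCM samples. Rap1a was at −4.79 and −3.87 in medullary FACS and at −0.23 to −0.01 in subcapsular FACS samples, against −1.99 to −0.15 in medullary LCM and −0.32 to 2.62 in subcapsular LCM samples. Gnb1, the G protein beta subunit, was the 1 of 23 genes whose sinus difference was unlike between the isolations (−4.17 ± 0.91, SE, limma adjusted p = 0.0467). Its mean was 0.89 in medullary FACS and 5.44 in subcapsular FACS samples, against 4.61 in medullary LCM and 4.99 in subcapsular LCM samples.

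The genes whose levels were most like those of a member were sought among 11745 candidates over the 14 arrays, by Pearson r. Cxcl13 was most like Pgcp (0.948) and Asah1 (0.925), both of which encode lysosomal or secreted hydrolases, and Cxcl12 most like Lass3 (0.825) and Hoxc10 (0.824). Ccl19 was most like Rabl5 (0.945) and Iqcf1 (0.919), Cxcl14 most like Gja5 (0.927), a gap junction gene, and Kbtbd13 (0.887), and Cxcl16 most like Slfn2 (0.891) and Eif3i (0.88). Among receptors, Cxcr5 was most like Sp1 (0.944) and Fyn (0.939), Cxcr4 most like Gpr132 (0.883) and Cdca8 (0.87), Ccr7 most like Plcb3 (0.842) and Dcpp2 (0.822), and Ccr6 most like Dsc3 (0.83) and Eid3 (0.826). With 14 arrays and so many candidates, such values describe these arrays alone.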

How the data were processed

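The authors deposited 14 scanner files, 1 per array, holding spot intensity values made with Agilent Feature Extraction 10.7.3.1, per the file headers, which subtracted background and applied no scaling between arrays. A deposited log2 table correlated with the scanner values of the same arrays at 0.9786 to 0.9997. How it was made is not given in the sources used here, and it served as an alternative. Probe positions are those of mm9, per the file headers.

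The log2 of the processed signal minus the array's 75th percentile was analysed after removal of control spots and outlier flags, with 1 probe per gene name. Differences were fitted over all genes with limma 3.58.1 in R 4.3.3 (Benjamini-Hochberg adjustment, called under 0.05). A gene was tested when well above background on 3 of 5 LCM arrays or 2 of 2 FACS arrays of either sinus. FACS was compared with LCM over all 14 arrays, with array weights by isolation. The fit was tested on simulated data. No array was dropped or imputed. A "95% interval" is that of the fit.

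The 10 genes and the gene lists were chosen with earlier results of these data known. All 10 are named, and genes of the 3 pathway lists only where called in 1 of the 4 comparisons (in a list with no call, the 2 with the lowest p by LCM). Tnfsf11 was added after its values were seen, and marker genes are named as checks of the label or beside a result they moved with. The marker lists are those of B cells, T cells, macrophages, dendritic cells, reticular cells, follicular dendritic cells, endothelium, lymphatic endothelium and high endothelial venules. Between the LCM sinuses 3 of 5 markers of high endothelial venules were called and 0 of the other lists, and between the FACS sinuses 0 of any. Between isolations the calls were 3 lower of 6 tested reticular, 2 lower of 6 endothelial, 1 lower of 8 B cell, 1 lower of 7 macrophage and 1 higher of 6 dendritic cell markers, and 0 of the other lists. The sinus difference was unlike between isolations for 1 endothelial, 1 high endothelial venule and 1 T cell marker, each lower. The labels speak of biological replicates without tying samples to animals, so p-values may be too small if samples shared animals. Same-numbered samples did not deviate together (r between −0.0203 and 0.00514), so numbers were not taken as pairs. Alternatives covered background correction, normalization, probe choice, filters, slide, row and single arrays.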

Additional observations from a re-analysis of the deposited data

Results flagged for a closer look

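Of 20 groups of 5 LCM samples tested, 2 held a sample set apart from the other 4 by more than Dixon's 95% limit, and chance alone marks about 1 in 20 groups. Ccl20 in medullary LCM sample 2 was at −4.12 while the other medullary LCM samples were at −7.4 to −7.16, none of them above background. Ccr6 in medullary LCM sample 1 was at 1.28 while the other medullary LCM samples were at −5.18 to −4.11. No cause was tested for either.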

How the results depend on the processing

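Of 803 differences of single genes recomputed under other settings, 750 kept their direction and their side of the threshold, 21 lost the threshold, 10 gained it and 22 turned in sign. Only the 3 differences called between isolations could lose it, so all 21 losses were theirs. With all arrays kept, Cxcl13 passed under 10 of 11 other settings, Cxcl12 under 9 of 12 and Ccr7 under 7 of 11. Between the LCM sinuses, called members numbered 2 with the 75th percentile taken over probes above background on all arrays (Cxcl12 and Cxcl13), 1 with a stricter filter (Cxcl13) and 1 with trend and robust variances (Cxcl13), against 0. Between the FACS sinuses it was 1 with all 14 arrays in 1 fit (Cxcr5). Between isolations it was 0 with the slide as a block and 1 to 3 when single arrays were left out, against 3. For the unlike sinus difference between isolations it was 0 under every setting that kept all arrays. Turned signs were those of Cxcr5 by LCM (0.2 with quantile normalization, 0.16 with that percentile, 0.2 with the deposited values), of Ccr6 and Cxcl12 by FACS (−0.49 and −0.24 with quantile normalization, −0.47 and −0.23 with the deposited values), of Ccr6 and Ccl19 between isolations (0.84 with the slide as a block, 1.57 by probe A_55_P2099742) and of Ccr6 in the unlike sinus difference (−0.04 with the row as a block); the cause was not tested. Leaving out single arrays, which leaves 1 FACS array in an arm and assumes that it varies like the others, turned signs within these ranges: by FACS −1.38 to 1.98 for Ccr6, −0.66 to 1.62 for Cxcl12 and −6.41 to 2.22 for Cxcl13; between isolations −1.3 to 0.38 for Ccr6 and −1.48 to 0.29 for Cxcl16; in the unlike sinus difference −0.14 to 3.22 for Ccr6, −3.45 to 5.18 for Cxcl13 and −2.35 to 1.2 for Cxcl16.

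Counts over all genes moved more: by LCM 8 with normexp, 15 with quantile normalization, 16 with the deposited values, 229 with the percentile over detected probes, 104 with the stricter filter, 127 with the slide and 14 with the row as a block, 212 on the first slide alone and 17 to 96 without single arrays, against 48. By FACS they were 1813 with trend and robust variances and 4507 in the fit of 14 arrays, against 0. Between isolations they were 184 with the slide as a block, 747 without array weights and 594 to 1565 without single arrays, against 1147. For the unlike sinus difference they were 0 to 1155 and, without single arrays, 11 to 1105, against 386. With replicate numbers as a block, which the pairing check did not bear out, the Cxcl13 difference by LCM stayed at −2.96 (limma adjusted p = 0.304), no member was called and 0 genes were called by LCM, against 48. That block was not possible between isolations, nor were slide and row blocks between the FACS sinuses. The scaling also moved the median gene and the split of calls. By LCM the median was 0.81 with the percentile over detected probes and −0.16 with normexp, against 0.08, and 6 of 8 calls with normexp, 10 of 15 with quantile normalization and 11 of 16 with the deposited values were higher, against 46 of 48. By FACS the median was 0.43 with quantile normalization, against 0.74. Between isolations 359 of 982 calls were higher with normexp and 804 of 1363 with that percentile, against 542 of 1147. In the unlike sinus difference 390 of 694 were higher with normexp and 110 of 470 with that percentile, against 166 of 386. Signals near background limit Ccl20, Ccr6 and Cxcl14 most.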
